A study of Mus musculus with 68 samples.

Results

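The 2 arrays described here measured RNA from mouse motor neurons in which a Notch1 ICD transgene had been switched on, labelled Notch1 ICD (10). They are 2 of the 68 arrays of the series and were set against 4 YFP arrays. The Notch1 ICD (10) and YFP arrays were taken by their titles and sort label alone. All arrays used here came from embryonic stem cells of strain C57/BL6 that were grown as embryoid bodies without serum. A retinoid, retinoic acid, and a Smoothened agonist were given on day 2, and motor neurons were taken on day 5 with magnetic beads against a surface reporter transgene. They were then plated on matrigel for 30 hours with doxycycline to induce the transgene of each line.

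The Notch1 ICD (10) group held replicates 1 and 2, both of batch 4 and both sorted for the CD2 reporter. The protocol states that some lines with a Notch intracellular domain were induced only during the final 10 hours, and the 10 in the name is read here as that time, which the labels do not spell out. The YFP group held 4 CD2 arrays, 1 of batch 1, 1 of batch 2 and 2 of batch 3, induced to express yellow fluorescent protein. Their induction is taken to have lasted the whole 30 hours, so the groups differ in induction time as well as in transgene. Batch 4 held no YFP array, so line and batch cannot be told apart in this comparison alone. Each gene was therefore also set beside the Hey1 array of batch 4, from CD2-sorted cells induced to express Hey1. The other 6 batch 4 arrays had high Hox values and did not enter the fit, so measured Hox expression chose the Hey1 array from the batch 4 arrays of other lines. Nothing in the labels tells whether replicates were separate cultures or clones, or which part of Notch1 the transgene carries. The p-values therefore reflect the spread among these arrays alone, and that spread may be technical.

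Notch receptors are cut when a ligand on a neighbouring cell binds them, and the freed intracellular domain enters the nucleus, where it joins the DNA-binding protein Rbpj and the Mastermind coactivators to switch genes on. The best known of those genes are the Hes and Hey repressors, which in the spinal cord hold back proneural factors and keep cells as progenitors. In ventral spinal cord Notch activity also steers the choice between neuron classes, and sustained activity favours glial over neuronal fates. Motor neurons are cells that have left that progenitor state.

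Expression is given as log2 values after RMA, a normalization that equalizes the distributions of arrays, so a difference of 1 is a doubling. The array medians were 7.724 and 7.593 for Notch1 ICD (10), 7.708 for the Hey1 array and 7.681 to 7.822 for YFP. Across 19938 genes the Notch1 ICD (10) replicates correlated at 0.994, and either of them correlated with the YFP arrays at 0.980 to 0.990. The 13 generic motor neuron genes averaged 11.28 and 11.22 in the Notch1 ICD (10) arrays, 11.22 in the Hey1 array and 11.20 to 11.47 in the YFP arrays. The labels give the cell type as ES cells, and 11 measured pluripotency genes averaged 6.98 and 6.72, 6.76, and 6.67 to 6.82 in the same order. Levels of different probe sets cannot be set against each other, and no detection calls were analysed, so these values compare the groups and do not show which cells were present. In such bulk samples, fewer cells of a type and less RNA per cell cannot be told apart.

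Few genes differed between Notch1 ICD (10) and YFP, and nearly all of those were higher in Notch1 ICD (10). Of 19938 genes, 39 were higher in the Notch1 ICD (10) arrays than in YFP (0.196%) and 5 were lower (0.0251%), by limma with Benjamini-Hochberg adjusted p under 0.05. Genes past that threshold are said to have risen or fallen. The median over all genes was 0.015. All 44 had both Notch1 ICD (10) values outside the range of the 4 YFP values, which was true of 9.01% of all genes on the high side and 7.4% on the low side. The rises ran from 0.87 to 4.01 on the log2 scale.

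Each of these genes was then set beside the Hey1 array of batch 4. A gene was said to hold when both Notch1 ICD (10) values lay on the same side of the Hey1 array and their mean differed from it by at least 0.5 of the difference from the YFP mean. By that rule 34 of 39 rises held, and so did 2 of 5 falls, 36 genes in all (0.181%). The 34 genes averaged 9.51 and 9.76 in the Notch1 ICD (10) arrays, 8.03 in the Hey1 array and 7.87 to 8.16 in the YFP arrays. Replicate 2 read above replicate 1 for 29 of them. These genes were chosen as higher than YFP and the Hey1 array, so the averages follow from the choice. Both Notch1 ICD (10) arrays also lay above each of the 6 other batch 4 arrays for 33 of the 34, the exception being Agtr1a. They lay above all 41 CD2 arrays without a Notch1 ICD transgene for 28 of the 34. The exceptions were Agtr1a, Frzb, Cldn1, Ccnd1, Fgf15 and Bmpr1b. The 41 include the YFP and Hey1 arrays used in the choice, and the shares over all genes were not counted. The Hey1 array is a single array of a line that expresses a Notch effector, so the check is void for Hey1 itself. For other genes it is one-sided. A rise holds more easily where the Hey1 line lowers the gene, and less easily where that line raises it.

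**Figure D1:**
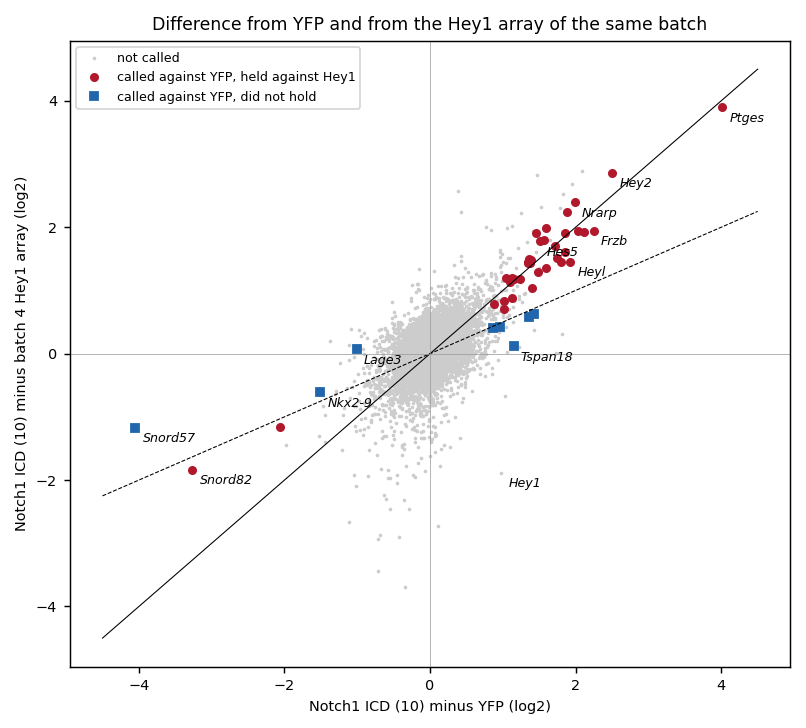
Difference of Notch1 ICD (10) from YFP (x axis, log2) against the difference from the batch 4 Hey1 array (y axis, log2) for all 19938 genes. The solid line marks equal differences and the dashed line a y value of 0.5 of x. Red circles are called genes that held and blue squares called genes that did not. Ptges, Hey2, Nrarp and most other rises lie near the solid line, while Tspan18, Lage3 and Nkx2-9 lie on the zero side of the dashed line. The arrays of Notch1 ICD (10) enter both axes.

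Notch1 itself, the gene of the transgene, read 11.91 and 11.85 in the Notch1 ICD (10) arrays, 11.01 in the batch 4 Hey1 array, and 9.87, 11.19, 10.45 and 11.13 in the YFP arrays of batches 1, 2, 3 and 3. Both values stood above every YFP value, but the YFP values themselves spread widely. The difference was 1.22 ± 0.32 (SE) and did not pass (limma adjusted p = 0.296). With batch 4 tied to YFP through the pair of Hey1 arrays, which read 11.01 in batch 4 and 9.71 in batch 2, it turned to -0.61 (adjusted p = 1.0). A probe set outside the part that the transgene carries would not read it, and the sources used here do not give that part.

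**Figure D2:**
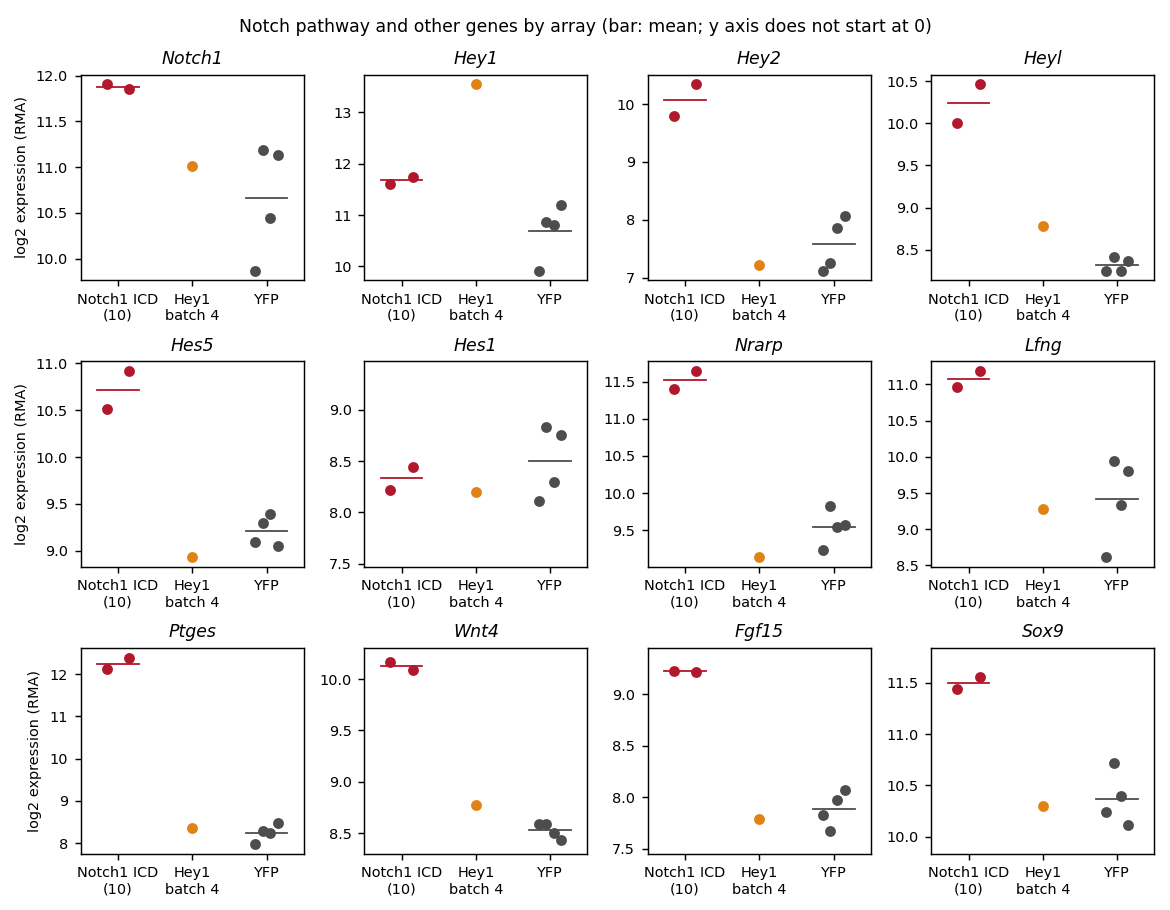
Log2 expression of 12 genes in each Notch1 ICD (10) array (red, left), the batch 4 Hey1 array (orange, middle) and each YFP array (grey, right). Bars are group means and the y axes do not start at 0. Hey2, Heyl, Hes5, Nrarp, Ptges, Wnt4, Fgf15 and Sox9 show both Notch1 ICD (10) arrays above every other point, Hes1 shows overlap, and Hey1 is highest in its own line.

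Among 12 Notch target genes, 4 rose and none fell: Hey2, Nrarp, Heyl and Hes5, all of which held. The median of the 12 was 0.81, against 0.015 over all genes, and 8 of them lay above all YFP arrays, against 9.01% of all genes. Hey2, a repressor of the Hairy/Enhancer-of-split-related family, read 9.80 and 10.35 in the Notch1 ICD (10) arrays, 7.22 in the Hey1 array, and 7.12, 7.25, 7.86 and 8.07 in the YFP arrays. The lower Notch1 ICD (10) value was well clear of the highest YFP value, and the difference was 2.50 ± 0.27, or 5.67-fold (adjusted p = 0.00389). Heyl, another member of that family, read 10.01 and 10.47 in the Notch1 ICD (10) arrays, 8.78 in the Hey1 array, and 8.25, 8.41, 8.25 and 8.36 in the YFP arrays. It rose by 1.92 ± 0.16 (adjusted p = 0.00122), with YFP values that lay close together. Hes5, a repressor that marks neural progenitors with active Notch, read 10.51 and 10.92 in the Notch1 ICD (10) arrays, 8.93 in the Hey1 array, and 9.09, 9.30, 9.39 and 9.05 in the YFP arrays. Its difference was 1.51 ± 0.17 (adjusted p = 0.00458), and the groups did not overlap.

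Nrarp is an ankyrin-repeat protein that Notch induces and that in turn dampens Notch signalling. It read 11.40 and 11.65 in the Notch1 ICD (10) arrays, 9.13 in the Hey1 array, and 9.23, 9.83, 9.54 and 9.57 in the YFP arrays. The difference was 1.99 ± 0.18, or 3.96-fold (adjusted p = 0.00138). Without replicate 2 of Notch1 ICD (10), Hey2, Nrarp and Hes5 lost their call, and with batch 4 tied through the Hey1 line Nrarp, Heyl and Hes5 did, at differences of 1.50, 1.36 and 1.53.

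The remaining 8 targets did not pass. Lfng, a glycosyltransferase that tunes which ligands a Notch receptor answers to, came nearest. It read 10.96 and 11.19 in the Notch1 ICD (10) arrays, 9.28 in the Hey1 array, and 8.61, 9.94, 9.34 and 9.80 in the YFP arrays. Both arrays lay above every YFP array, at 1.65 ± 0.31 (adjusted p = 0.0838). Hey1 read 11.61 and 11.74 in the Notch1 ICD (10) arrays, 13.55 in its own line, and 9.92, 10.86, 10.80 and 11.20 in the YFP arrays, a difference from YFP of 0.98 ± 0.29 (adjusted p = 0.385). Notch3 differed by 0.64, Dtx4 by 0.58 and Dtx1 by 0.29. Hes1, the classical Notch target of progenitors, read 8.22 and 8.44 in the Notch1 ICD (10) arrays, 8.20 in the Hey1 array, and 8.11, 8.83, 8.30 and 8.75 in the YFP arrays, within the YFP range (-0.16 ± 0.21, adjusted p = 0.948). Hes7 and Hes3 also overlapped with YFP, at 0.03 and -0.03.

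Rbpj binds DNA at sites with the core TGGGAA, and GTGGGAA is a longer form that contains this core. Both were searched on both strands in the 250 bases before each RefSeq start (GRCm38.p6). TGGGAA occurred before 24.1% of 27025 genes and GTGGGAA before 6.18%. Of the 34 rises that held, 25 had a window, and 8 of them (32.0%) held TGGGAA and 6 (24.0%) GTGGGAA. Of the 12 Notch targets, 7 had a window and 4 (57.1%) held both. The windows shown are those of the called Notch targets that had one, Hes5, Hey2 and Nrarp, and that of Ptges, the largest rise. Capitals mark TGGGAA or, where it lies on the other strand, TTCCCA. The Hes5 window is chr4:154960673-154960922 on the plus strand, with matches 226 and 82 bases before the start. Those of Hey2 (chr10:30842784-30843033, minus strand) and Ptges (chr2:30903298-30903547, minus strand) have 1 match each, 207 and 140 bases before it. That of Nrarp (chr2:25180508-25180757, plus strand) has 0 matches. A match is a description of the letters and not evidence of binding.
Hes5: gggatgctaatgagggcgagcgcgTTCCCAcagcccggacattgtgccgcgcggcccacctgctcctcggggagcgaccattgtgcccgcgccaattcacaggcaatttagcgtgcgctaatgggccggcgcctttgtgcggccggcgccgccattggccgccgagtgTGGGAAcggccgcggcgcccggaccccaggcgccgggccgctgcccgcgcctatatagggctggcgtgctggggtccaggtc
Hey2: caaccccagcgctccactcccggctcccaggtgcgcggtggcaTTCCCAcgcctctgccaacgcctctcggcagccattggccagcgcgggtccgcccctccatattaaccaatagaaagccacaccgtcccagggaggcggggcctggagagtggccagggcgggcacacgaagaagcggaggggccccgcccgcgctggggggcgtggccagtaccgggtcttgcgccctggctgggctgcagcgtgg
Nrarp: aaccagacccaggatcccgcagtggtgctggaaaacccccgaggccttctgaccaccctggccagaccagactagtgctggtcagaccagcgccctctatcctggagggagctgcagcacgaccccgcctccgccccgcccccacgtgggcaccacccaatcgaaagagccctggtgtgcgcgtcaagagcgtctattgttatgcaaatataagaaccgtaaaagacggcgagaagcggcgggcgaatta
Ptges: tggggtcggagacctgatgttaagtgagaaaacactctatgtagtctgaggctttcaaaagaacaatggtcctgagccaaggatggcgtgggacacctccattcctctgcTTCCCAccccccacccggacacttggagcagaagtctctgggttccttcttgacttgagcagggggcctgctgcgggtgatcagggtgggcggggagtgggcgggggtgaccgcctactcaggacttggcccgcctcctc

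No member of the rest of the Notch pathway passed. Among 24 receptors and signalling components, 0 rose and 0 fell and the median was 0.02. Rbpj read 11.50 and 11.62 in the Notch1 ICD (10) arrays, 11.39 in the Hey1 array and 10.96 to 11.47 in the YFP arrays, a difference of 0.32. Among 17 ligands and proneural factors, 0 rose and 0 fell and the median was -0.12. Of them 3 lay above all YFP arrays and 4 below, against 9.01% and 7.4% of all genes. The 4 below included the ligands Dll1 (-0.40) and Dll3 (-0.68), which developing neurons present to their neighbours, and the proneural factors Neurod1 (-0.98) and Neurod4 (-0.89). Neurod4 read 7.35 and 7.42 in the Notch1 ICD (10) arrays, 8.40 in the Hey1 array, and 7.83, 8.69, 7.70 and 8.89 in the YFP arrays (adjusted p = 0.559). Jag1, a ligand that Notch activity can raise, stood above all YFP arrays at 0.89 ± 0.34 (adjusted p = 0.641).

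The largest rise was that of Ptges, the inducible prostaglandin E synthase, which makes prostaglandin E2. Its probe set (transcript cluster 10481518) read 12.11 and 12.39 in the Notch1 ICD (10) arrays, 8.35 in the Hey1 array, and 7.97, 8.29, 8.23 and 8.47 in the YFP arrays. That is a difference of 4.01 ± 0.17, or 16.1-fold (adjusted p = 3.9e-06). The other 6 batch 4 arrays read 8.19 to 8.53, inside or near the YFP range. Leaving out single arrays moved the difference between 3.87 and 4.15, with adjusted p at most 0.000701. It also passed with batch 4 tied through the Hey1 line (3.24, adjusted p = 0.00894).

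The remaining rises are described by what their products do, in an order chosen after their values were seen and not tested as groups. Wnt4, a Wnt ligand, read 10.17 and 10.09 in the Notch1 ICD (10) arrays, 8.77 in the Hey1 array, and 8.59, 8.59, 8.50 and 8.43 in the YFP arrays, a difference of 1.60 ± 0.14 (adjusted p = 0.00122). Frzb, a secreted protein that binds Wnts, read 8.64 and 9.03 in the Notch1 ICD (10) arrays, 6.89 in the Hey1 array, and 6.30, 6.79, 6.38 and 6.87 in the YFP arrays. It rose by 2.25 ± 0.20 (adjusted p = 0.00135), and of the 29 CD2 arrays of lines other than Notch1 ICD, Hey1 and YFP and outside the Hox-high set, 1 lay above the lower of its Notch1 ICD (10) values. Daam2, a formin that acts in Wnt signalling, rose by 1.72 ± 0.24 (adjusted p = 0.0171) and the ligand Wnt7b by 1.15 ± 0.16 (adjusted p = 0.0198).

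Fgf15, a fibroblast growth factor of the early neural tube, read 9.23 and 9.22 in the Notch1 ICD (10) arrays, 7.79 in the Hey1 array, and 7.83, 7.67, 7.97 and 8.07 in the YFP arrays. The replicates nearly coincided, and the difference was 1.34 ± 0.15 (limma adjusted p = 0.005). Of the 29 CD2 arrays of the remaining lines, 2 lay above the lower of these replicates, the highest at 10.33. Inhbb, which encodes a subunit of activin and inhibin, rose by 1.34 ± 0.14 (adjusted p = 0.00273) from YFP values of 7.29 to 7.39. Bmpr1b, a receptor for bone morphogenetic proteins, rose by 0.88 ± 0.15 (adjusted p = 0.046), the smallest rise that held. In the list of 16 BMP, TGF-beta and Id genes, Bmpr1b and Id1 rose, none fell and the median was 0.14.

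Several rises encode surface or adhesion proteins. In the list of 25 cadherins and protocadherins, Cdh1 alone rose, none fell and the median was 0.11. Mcam, an adhesion molecule of the immunoglobulin family, read 11.03 and 11.41 in the Notch1 ICD (10) arrays, 9.28 in the Hey1 array, and 8.92, 9.14, 9.01 and 9.72 in the YFP arrays (2.03 ± 0.23, adjusted p = 0.00446). Itga1, the integrin chain of a collagen receptor, rose by 2.12 ± 0.31 (adjusted p = 0.0251), with YFP values from 6.52 to 7.91. Vcam1, an adhesion molecule that binds integrins, rose by 1.57 ± 0.24 (adjusted p = 0.0318). Efna1, a ligand of Eph receptors, rose by 1.36 ± 0.19, and Flt1, a receptor for vascular endothelial growth factor, by 1.13 ± 0.16. Agtr1a, an angiotensin receptor, read 9.91 and 10.57 in the Notch1 ICD (10) arrays, 8.00 in the Hey1 array, and 7.82, 8.18, 8.44 and 8.99 in the YFP arrays (1.88 ± 0.29, adjusted p = 0.0313). Unlike the other rises that held, it was as high in part of its batch: 3 of the 6 Hox-high batch 4 arrays, which spanned 9.56 to 10.66, lay above the lower of its Notch1 ICD (10) values.

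Cdh1, the epithelial cadherin, read 9.81 and 10.09 in the Notch1 ICD (10) arrays, 8.04 in the Hey1 array, and 7.82, 8.35, 7.97 and 8.21 in the YFP arrays, a difference of 1.86 ± 0.18 (adjusted p = 0.00184). Cldn1, a tight junction protein, read 8.15 and 8.65 in the Notch1 ICD (10) arrays, 6.42 in the Hey1 array, and 6.70, 6.94, 6.70 and 6.91 in the YFP arrays (1.59 ± 0.17, adjusted p = 0.00389). Krt7, a keratin of simple epithelia, rose by 1.23 ± 0.18 (adjusted p = 0.0205). Of 11 epithelial marker genes, Cdh1 alone rose, none fell and the median was 0.25, but 5 lay above all YFP arrays, against 9.01% of all genes. The list averaged 8.19 and 8.27 in the Notch1 ICD (10) arrays, 7.67 in the Hey1 array and 7.51 to 7.80 in the YFP arrays. Krt18 differed by 1.49 ± 0.28 (limma adjusted p = 0.0775), Krt8 by 1.05 and Krt19 by 1.05. Epcam, a defining marker of epithelia, read 6.87 and 6.69 in the Notch1 ICD (10) arrays, 6.69 in the Hey1 array and 6.31 to 6.79 in the YFP arrays. Cldn3, Cldn4, Cldn6 and Cldn7, claudins like Cldn1, overlapped with YFP at -0.03, 0.20, -0.06 and -0.00. Grhl2 differed by 0.12 and Esrp1 by 0.37. Cldn1 and Krt7 are not in the list. Whether epithelial cells have a part in the rises of Cdh1, Cldn1 and Krt7 was not tested.

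Genes of neural progenitors and radial glia rose in part. Of 20 such genes, Ttyh1, Id1 and Sox9 rose, none fell and the median was 0.22. All YFP arrays lay below 6 of them and above 2, against 9.01% and 7.4% of all genes. Ttyh1, a membrane protein of neural stem cells, read 11.80 and 11.81 in the Notch1 ICD (10) arrays, 10.20 in the Hey1 array, and 9.74, 10.31, 10.14 and 9.61 in the YFP arrays (1.86 ± 0.20, adjusted p = 0.00389). A RIKEN transcript that overlaps Ttyh1 in the RefSeq gene table rose as well, and the pair is not independent evidence. Id1, an inhibitor of basic helix-loop-helix factors, read 10.35 and 10.41 in the Notch1 ICD (10) arrays, 8.86 in the Hey1 array, and 7.98, 8.78, 8.63 and 9.14 in the YFP arrays (1.75 ± 0.26, adjusted p = 0.0251). Sox9, a transcription factor of progenitors and glia, read 11.44 and 11.56 in the Notch1 ICD (10) arrays, 10.30 in the Hey1 array, and 10.24, 10.72, 10.40 and 10.11 in the YFP arrays (1.13 ± 0.18, adjusted p = 0.0384). Nes stood above all YFP arrays at 0.59 and Id3 at 0.97, both short of the threshold. Sox2 (0.26) overlapped with YFP, and Olig2, the factor of motor neuron progenitors, lay below all YFP arrays at -0.68 ± 0.15 (adjusted p = 0.156).

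Ccnd1, cyclin D1, read 10.92 and 11.20 in the Notch1 ICD (10) arrays, 9.15 in the Hey1 array, and 9.47, 9.46, 9.35 and 10.13 in the YFP arrays, a difference of 1.46 ± 0.22 (adjusted p = 0.0251). It was the only one of 22 cell cycle genes to rise, and none fell. Of these genes 20 had a difference above 0, with a median of 0.52, but the YFP arrays differed among themselves by more: the list averaged 10.62 and 10.81 in the Notch1 ICD (10) arrays, 10.09 in the Hey1 array and 9.54 to 10.71 in the YFP arrays. Top2a, a topoisomerase of dividing cells, read 10.90 and 11.07 in the Notch1 ICD (10) arrays, 10.32 in the Hey1 array, and 9.24, 10.62, 10.40 and 10.89 in the YFP arrays (adjusted p = 0.821). Whether the share of dividing cells has a part in the rise of Ccnd1 or of the progenitor genes was not tested.

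The other rises that held belonged to no group of the lists. Phlda2, an imprinted gene, read 9.79 and 10.58 in the Notch1 ICD (10) arrays, 8.73 in the Hey1 array, and 8.62, 8.38, 8.40 and 8.17 in the YFP arrays (1.79 ± 0.22, adjusted p = 0.00737), with the replicates further apart than for most rises. Myo7a, an unconventional myosin, rose by 1.38 ± 0.16 and Adamts3, a protease that processes procollagen, by 1.40 ± 0.17. Ripor2 rose by 1.49, Pparg, a nuclear receptor of lipid metabolism, by 1.09, Gjc3, a connexin, by 1.05, Tnfaip3, an inhibitor of NF-kappaB signalling, by 1.02, and Adarb1, an RNA-editing adenosine deaminase, by 1.02.

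The other 5 rises did not hold against the Hey1 array, because it was also high. Tspan18, a tetraspanin, read 10.66 and 10.80 in the Notch1 ICD (10) arrays, 10.61 in the Hey1 array, and 9.44, 9.90, 9.34 and 9.66 in the YFP arrays. Its difference from YFP was 1.15 ± 0.18 (adjusted p = 0.0312) and that from the Hey1 array 0.12. The 6 Hox-high batch 4 arrays read 9.28 to 9.50, so the level was not shared by the batch. Hspb8, a small heat shock protein, Masp1, a protease of the complement system, Litaf and Egr1, an early response factor, rose by 1.42, 1.36, 0.96 and 0.87 against YFP and stood 0.63, 0.59, 0.42 and 0.40 above the Hey1 array. In both Notch1 ICD (10) arrays all of them were above each of the 6 Hox-high batch 4 arrays. They lay just outside the limit of 0.5, at shares of 0.44, 0.43, 0.44 and 0.46, while the rises that held had shares of 0.70 to 1.31. Of 12 stress and early response genes, Egr1 alone rose, none fell, and the median was 0.07 against YFP but -0.34 against the Hey1 array.

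The falls were few and 3 of the 5 were small nucleolar RNAs, which guide chemical modification of other RNAs. Snord57 read 7.40 and 9.26 in the Notch1 ICD (10) arrays, 9.50 in the Hey1 array, and 12.29, 12.44, 12.59 and 12.20 in the YFP arrays (-4.05 ± 0.38, adjusted p = 0.0017). All 9 batch 4 arrays were low: the 6 Hox-high arrays read 8.29 to 9.75, while the 28 CD2 arrays of batches 1 to 3 read 11.76 to 13.08. Snord82 read 6.78 and 7.16 in the Notch1 ICD (10) arrays, 8.81 in the Hey1 array, and 10.84, 10.27, 10.17 and 9.67 in the YFP arrays (-3.27 ± 0.27, adjusted p = 0.00122), and the Hox-high batch 4 arrays read 6.47 to 7.79. Snord47 fell by 2.06 ± 0.30 (adjusted p = 0.0245), and the Hox-high arrays read 6.23 to 7.57. Snord82 and Snord47 counted as held, each at a share of 0.56, and for both the Hey1 array was at or near the top of its batch. For Snord57 and Snord82 every batch 4 array read below every CD2 array of batches 1 to 3. For Snord47 the ranges overlapped, at 5.83 to 7.57 in the batch 4 arrays and 6.98 to 9.11 in those of batches 1 to 3. Within batch 3, Snord47 also fell in Notch1 ICD (30), reading 7.83 and 7.87 in Notch1 ICD (30) against 8.77 and 8.71 in YFP (-0.89 ± 0.15, limma adjusted p = 0.00595). In the NERT groups described below it went the other way. It was at 0.42 ± 0.16 in NERT (10), which did not pass, and rose by 0.57 ± 0.16 in NERT (30) (limma adjusted p = 0.0472). The part of the batch in these falls was not tested.

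Of 51 small nucleolar RNAs, 0 rose and 3 fell, and 16 lay below all YFP arrays, against 7.4% of all genes. The median was -0.36 against YFP and -0.49 against the Hey1 array. They averaged 7.42 and 7.79 in the Notch1 ICD (10) arrays, 8.08 in the Hey1 array, 7.69 to 8.07 in the Hox-high batch 4 arrays and 7.97 to 8.30 in the YFP arrays. None of the host genes passed the test. Nop56, whose span holds Snord57, differed by 0.38, Ncl, which holds Snord82, by 0.42, and Gas5, which holds Snord47, by -0.39.

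Nkx2-9, a homeodomain factor of ventral progenitors next to the floor plate, was the only fall among protein-coding transcription factors. It read 9.52 and 9.38 in the Notch1 ICD (10) arrays, 10.06 in the Hey1 array, and 11.14, 10.50, 11.22 and 10.97 in the YFP arrays (-1.51 ± 0.20, adjusted p = 0.0145). It did not hold, at a share of 0.41, and arrays of other lines ranged widely, from 8.01 to 10.43 in the Hox-high batch 4 arrays and from 8.61 to 12.08 in the 29 CD2 arrays of the remaining lines. Nkx2-2, which marks the same progenitors, read 8.61 and 8.60 in the Notch1 ICD (10) arrays, 8.92 in the Hey1 array, and 8.77, 9.96, 9.44 and 9.86 in the YFP arrays (-0.90 ± 0.28, adjusted p = 0.454). Lage3 read 8.92 and 8.71 in the Notch1 ICD (10) arrays, 8.75 in the Hey1 array, and 9.72, 9.71, 9.84 and 10.01 in the YFP arrays (-1.01 ± 0.15, adjusted p = 0.0285). The Hey1 array was as low, and the Hox-high batch 4 arrays read 8.75 to 9.32.

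**Figure D3:**
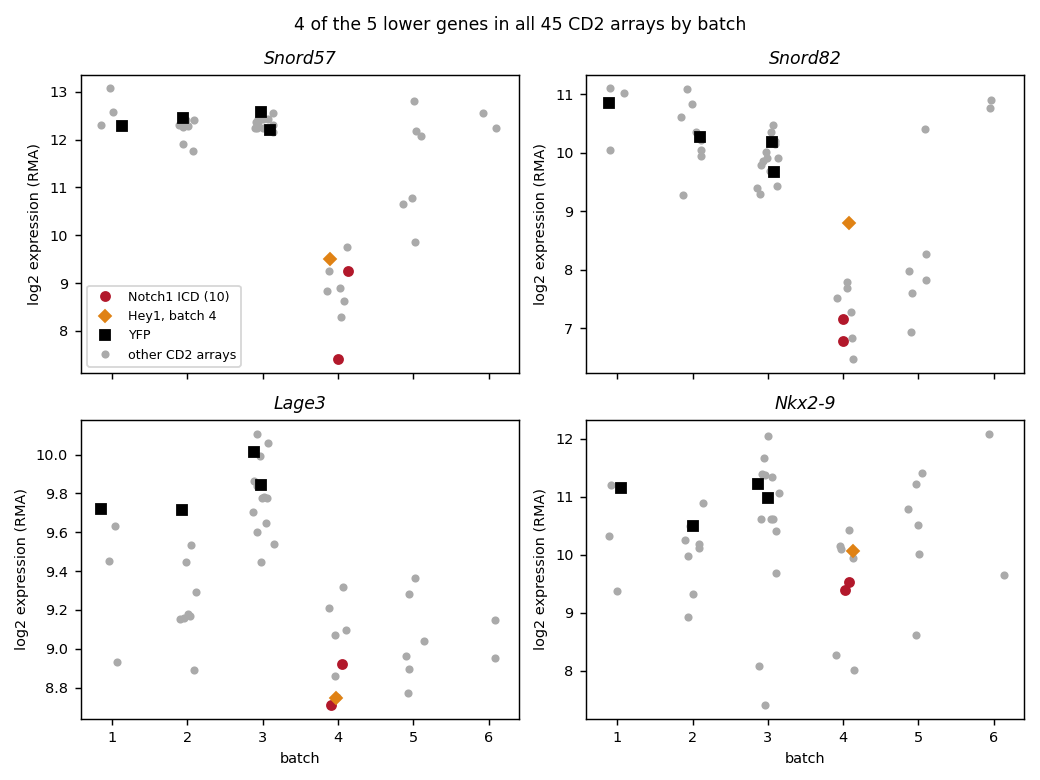
Log2 expression of Snord57, Snord82, Lage3 and Nkx2-9 in each of the 45 CD2 arrays by batch (y axes do not start at 0). Red circles are Notch1 ICD (10), the orange diamond is the batch 4 Hey1 array, black squares are YFP and grey circles the other CD2 arrays. For Snord57 all 9 batch 4 arrays lie at 7.40 to 9.75, below every array of batches 1 to 3, whereas Nkx2-9 varies within each batch.

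The motor neuron identity genes did not pass in either direction. Of 13 generic motor neuron genes, 0 rose and 0 fell, with a median of 0.01 and a range from -0.50 to 0.21. Isl1, a factor that defines motor neurons, read 12.66 and 12.60 in the Notch1 ICD (10) arrays, 12.66 in the Hey1 array, and 12.89, 12.69, 12.46 and 12.66 in the YFP arrays, within the YFP range. Mnx1 and Lhx3 differed by 0.21 and 0.18. At the low end, Chat, which makes acetylcholine, was at -0.50 ± 0.15 (limma adjusted p = 0.385). Slc18a3, which loads acetylcholine into vesicles, was at -0.36 ± 0.15 (limma adjusted p = 0.729). Both lay below all YFP arrays, as did 7.4% of all genes, and neither passed.

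Of the 12 phrenic motor neuron genes, the program that the screen was built around, 0 rose and 0 fell and the median was 0.31. Pou3f1 read 8.75 and 8.39 in the Notch1 ICD (10) arrays, 8.52 in the Hey1 array, and 8.67, 8.41, 8.69 and 8.39 in the YFP arrays. Hoxa5 and Hoxc5 differed by 0.25 and 0.77 and overlapped with YFP. With all CD2 arrays and batch terms, a fit in which the 6 Hox-high arrays set the batch 4 level, Hoxa5 turned to -2.05 (adjusted p = 0.0135). The 3 phrenic genes above all YFP arrays, where 9.01% of all genes lay, were Cdh10 (0.71 ± 0.16, adjusted p = 0.157), Alcam (0.50) and Tshz1 (0.39). Of 14 Hox genes of paralogues 1 to 5 and 23 of paralogues 6 to 13, 0 passed in each.

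V2 interneurons arise beside motor neurons, and Notch signalling favours their inhibitory subset. Their factors had 0 calls among 8 genes. Tal1, a factor of that subset, came nearest: it read 8.82 and 8.63 in the Notch1 ICD (10) arrays, 8.42 in the Hey1 array, and 8.13, 8.27, 8.05 and 8.18 in the YFP arrays (0.57 ± 0.14, adjusted p = 0.271). Oligodendrocyte and astrocyte genes had 0 calls among 16, with a median of 0.16. There were also 0 calls among 18 synaptic genes, 36 axon guidance genes, 15 neuropeptide and trophic genes, 11 motor column genes, 9 dorsal interneuron genes, 9 V0 and V1 genes, 10 neural crest genes and 12 genes of mesoderm, endothelium and fibroblasts. Of the guidance genes 12 lay above all YFP arrays, against 9.01% of all genes, with Plxnd1, a semaphorin receptor, at 1.14 ± 0.22 (adjusted p = 0.0968). Among mesodermal genes Pdgfrb, a growth factor receptor, stood at 1.45 ± 0.29 (adjusted p = 0.105).

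Compared with the Hey1 array alone, in the same fit and with that lone array assumed to vary like the groups, 17 genes passed (0.0853%), 11 higher in Notch1 ICD (10) and 6 lower. A lone array has no replicate check, and the count was 1 without either Notch1 ICD (10) array, 61 without the YFP array of batch 1, and 8 and 47 without replicates 1 and 2 of the batch 3 YFP arrays. The higher genes were Ptges (3.90), Hey2 (2.86), Nrarp (2.39), Cldn1 (1.99), Frzb (1.94), Cdh1 (1.91), Hes5 (1.78), Myo7a (1.48), Inhbb (1.46), Wnt4 (1.36) and Kcnk9 (2.58). All but Kcnk9 have been described above as rises against YFP, and both comparisons use the same Notch1 ICD (10) arrays. Kcnk9 is a potassium channel and read 12.37 and 12.02 in the Notch1 ICD (10) arrays, 9.62 in the Hey1 array and 11.57 to 12.41 in the YFP arrays. The Hey1 array was thus below every YFP array but within the range of the 6 Hox-high batch 4 arrays, 9.23 to 10.61. Both Notch1 ICD (10) arrays lay above that range. The 6 lower genes, Cacng3, Chchd10, Kcnt2, Mamdc2, Nhlh1 and Serpinf1, were higher in the Hey1 array than in every YFP and Hox-high batch 4 array. Cacng3 read 6.92 and 7.11 in the Notch1 ICD (10) arrays, 10.70 in the Hey1 array and 6.70 to 7.71 in the YFP arrays. Against YFP the Hey1 array itself was at 3.35 for Cacng3, 1.92 for Mamdc2, -2.19 for Kcnk9 and 2.86 for Hey1, the induced gene. With 1 array these differences have no spread of their own, and no count of genes that differ between Hey1 and YFP is given here.

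A further 3 transgenic groups of the series bear on the same genes. Notch1 ICD (30), 2 CD2 arrays of batch 3, is read as the same transgene induced for 30 hours, and its control is the pair of batch 3 YFP arrays. NERT (10) and NERT (30), 2 CD14 arrays each of batch 7, carry a transgene that the labels do not spell out, and their control is the pair of YFP arrays of batch 7. The NERT groups share no array with Notch1 ICD (10) or its controls, differ in reporter, and have YFP arrays of their own batch. Notch1 ICD (30) shares the 2 batch 3 YFP arrays, so its values are only given side by side.

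In NERT (10), 203 genes rose (1.02%) and 60 fell (0.301%). Of the 39 rises of Notch1 ICD (10), 25 also rose there and none fell, which is 64.1% of the Notch1 ICD (10) rises and 12.3% of the NERT (10) rises. Their NERT (10) differences had a median of 0.76, and 37 of 39 were above 0. The share of all genes above 0 in NERT (10) was not counted. In the other direction, 117 of the 203 NERT (10) rises were above 0 in Notch1 ICD (10), with a median of 0.07. Over all genes 10565 of 19938 were above 0, with a median of 0.015, so this count was near that of all genes. Both Notch1 ICD (10) arrays lay above all YFP arrays for 67 of the 203, against 9.01% of all genes. The NERT (10) count rests on every array, since leaving out 1 of its 2 arrays or 1 of its 2 YFP arrays brought it to between 13 and 30. Of the 5 falls of Notch1 ICD (10), 0 changed in NERT (10). Snord57 read 12.21 and 12.35 in NERT (10), against 11.92 and 12.01 in its YFP arrays.

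Of the 12 Notch targets, 5 rose in NERT (10) and none fell. Hey2 rose by 2.16 ± 0.27 in NERT (10), reading 10.11 and 9.99 in NERT (10) against 7.67 and 8.11 in YFP. Hes5 rose by 1.74 ± 0.15, Nrarp by 1.72 ± 0.12, Heyl by 1.58 ± 0.16 and Lfng by 0.90 ± 0.11, whereas Hey1 at 0.48 ± 0.09 did not pass (limma adjusted p = 0.0515). Ptges rose by 1.95 ± 0.16, reading 10.69 and 10.93 in NERT (10) against 8.65 and 9.07 in YFP. Fgf15 rose by 1.92 ± 0.12 and Efna1 by 1.38 ± 0.07.

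Some rises of Notch1 ICD (10) were near 0 in other groups. Krt7 was at -0.16 in NERT (10), -0.37 in NERT (30) and -0.05 in Notch1 ICD (30), and Pparg at -0.05, 0.07 and -0.10. Gjc3 rose by 0.61 in NERT (10) but was at -0.17 and -0.15 in NERT (30) and Notch1 ICD (30). Frzb was at 0.28 ± 0.24 in NERT (10), 1.05 in NERT (30) and 3.85 in Notch1 ICD (30). Ccnd1 was at 0.22 in NERT (10), where its YFP arrays already read 10.94 and 11.27, and at 1.36 and 3.14 in NERT (30) and Notch1 ICD (30). Tnfaip3 was at 0.00 and 0.20 in NERT (10) and NERT (30), and rose by 1.04 in Notch1 ICD (30). Differences between the groups in these effects were not tested.

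With the longer induction, 34 of the 39 rises were also higher in NERT (30), where 1563 genes rose (7.84%) and 1225 fell (6.14%). In Notch1 ICD (30), 395 genes rose (1.98%) and 162 fell (0.813%). The 34 rises that held had a median difference of 1.50 in Notch1 ICD (10) and 2.18 in Notch1 ICD (30), and of 0.81 in NERT (10) and 1.82 in NERT (30). The NERT groups share their batch and both YFP arrays. The Notch1 ICD groups share only the batch 3 YFP arrays and are of different batches, so between them time and batch cannot be told apart. Hey2 was at 2.50 in Notch1 ICD (10) and 4.31 in Notch1 ICD (30), and at 2.16 in NERT (10) and 4.39 in NERT (30). Fgf15 was at 1.34 and 3.97 in the Notch1 ICD groups and at 1.92 and 3.61 in the NERT groups. Lfng was at 1.65 and 1.52 in the Notch1 ICD groups and at 0.90 and 1.17 in the NERT groups. Isl1, which did not pass in either 10 hour group, was at -0.92 ± 0.18 in Notch1 ICD (30) (limma adjusted p = 0.012) and at -0.72 ± 0.08 in NERT (30) (adjusted p = 0.00134). Nkx2-9 was at -1.51 and -3.35 in the Notch1 ICD groups and at -0.62 and -1.60 in the NERT groups. Of the 5 falls of Notch1 ICD (10), 2 fell in Notch1 ICD (30), Nkx2-9 and Snord47. In NERT (30) 1 fell, Nkx2-9, and 2 rose, Snord47 and Lage3 (0.33).

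**Figure D4:**
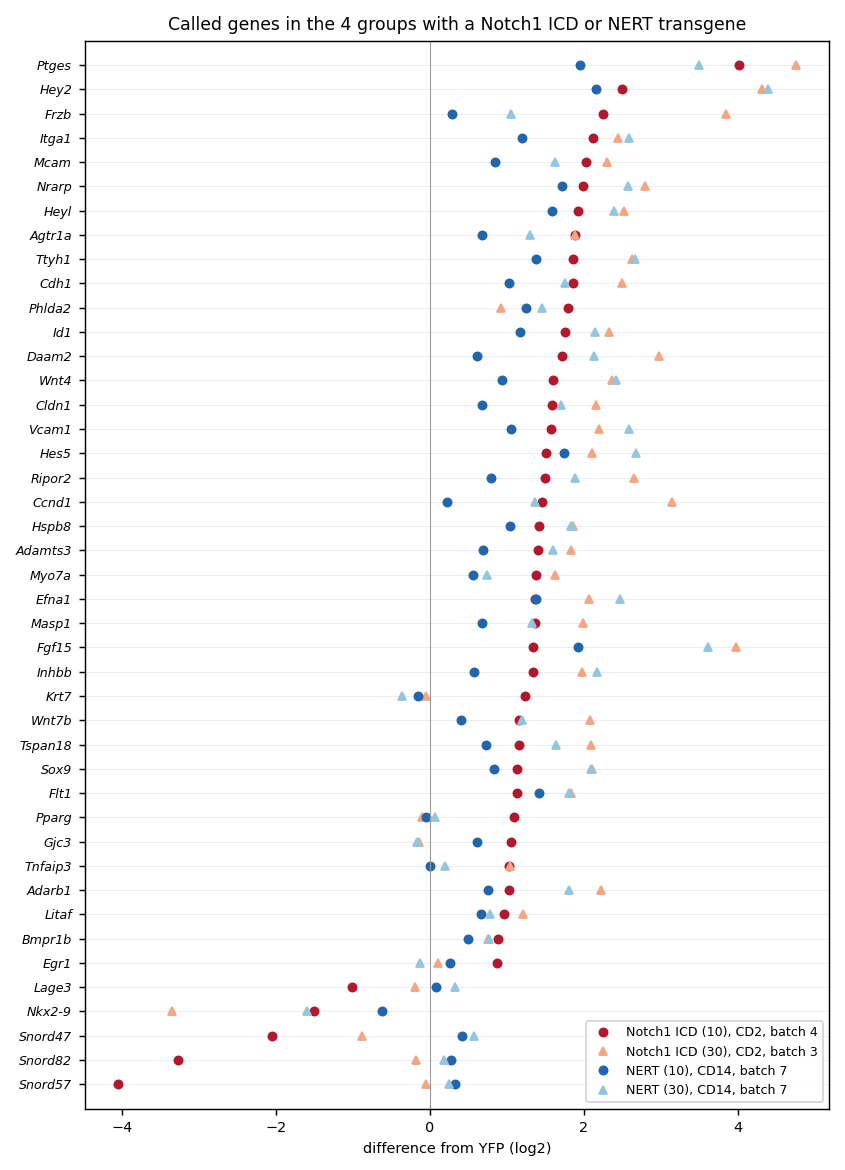
Difference from YFP (x axis, log2) of each called gene other than the RIKEN transcript in 4 groups, ordered by the value in Notch1 ICD (10). Circles are 10 hour and triangles 30 hour groups, red for Notch1 ICD in CD2 cells and blue for NERT in CD14 cells. Most rises lie right of 0 in all 4 groups, Krt7 and Pparg only in Notch1 ICD (10) by more than 0.1, and the 3 small nucleolar RNAs are far left of 0 in Notch1 ICD (10) but not in NERT.

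The calls rested on few arrays and on the choice of batch model. Leaving out 1 array in turn gave 13 rises without replicate 1 of Notch1 ICD (10) and 3 without replicate 2. It gave 78 without the YFP array of batch 1, 22 without that of batch 2, and 17 and 69 without replicates 1 and 2 of batch 3. All 44 genes kept their sign in each of these fits, and 5 kept their call in all: Ptges, Heyl, Wnt4, Snord57 and Snord82. Such fits cannot tell line from batch, since no YFP array is of batch 4. Snord57 and Snord82 were low in every batch 4 array. With batch 4 tied to YFP through the 2 Hey1 arrays, 6 genes rose and 40 fell. Of the 39 rises, 2 kept their call there, Ptges (3.24) and Hey2 (2.78). The sign was kept by 38 of them, Tspan18 at -0.85 being the exception.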

How the data were processed

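RNA was hybridised to Affymetrix mouse gene arrays. Per the submitters' processing notes, the authors used RMA in oligo to make the deposited log2 values; versions and annotation build: not given in the sources used here. The number of arrays limits the precision. Of 35556 transcript clusters, 21789 had 1 symbol in the array annotation and the others were left out; of several clusters of a gene the one with the highest mean was kept, which left 19938 genes.

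Groups came from the titles. The 2 Notch1 ICD (10), 4 YFP and 1 batch 4 Hey1 arrays were fitted with limma 3.58.1 (R 4.3.3, lmFit and eBayes, 4 residual degrees of freedom, no batch term), two-sided, with Benjamini-Hochberg adjustment over all 19938 genes. NERT and Notch1 ICD (30) were fitted within batches 7 and 3. The fit was tested on simulated data. Alternatives covered normalization, dim genes, the variance model, batch and single arrays.

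The comparison, the gene lists and the naming rule were chosen with earlier results of these data known. The rule took Notch1, the Notch targets, chosen motor neuron and Hox genes, the 12 largest rises and falls that held, the 5 largest that did not and up to 4 called members per list. All other genes were named after their values were seen. All 68 array columns were matched to samples by name.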

Additional observations from a re-analysis of the deposited data

Results flagged for a closer look

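Among 60 genes described above, each checked for 1 YFP array that stood far from the other 3, 2 had such an array, and chance alone gives about 1 in 20. Ccnd1 read 10.92 and 11.20 in the Notch1 ICD (10) arrays. In the YFP arrays it read 10.13 in replicate 2 of batch 3, away from 9.35 to 9.47 in the other YFP arrays, and both Notch1 ICD (10) values were above it. Hes7 read 8.01 and 7.76 in the Notch1 ICD (10) arrays. In the YFP arrays it read 8.12 in replicate 1 of batch 3, away from 7.76 to 7.79 in the others.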

How the results depend on the processing

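In 2 arrays of 1 batch the counts of calls depended on the setting more than the directions did. The direction of all 44 called genes was kept when quantile normalization was run once more, with arrays centred on their medians, with an intensity trend, with cluster means, with batch as a random block and without each single array. For rises, falls, rises that held, falls that held, genes called against the Hey1 array and Notch targets, in that order, the reported counts were 39, 5, 34, 2, 17 and 4. They were 14, 3, 14, 1, 1 and 3 with dim genes left out, where 9969 genes were tested; 98, 11, 85, 9, 96 and 5 with all CD2 arrays and no batch term; and 190, 43, 97, 10, 130 and 4 with all CD2 arrays and batch terms, where Hoxa5 turned to -2.05. Tied through the Hey1 line they were 6, 40, 5, 26, 107 and 1, and Tspan18 turned to -0.85. With all CD2 arrays but the 6 Hox-high ones and batch terms, an alternative chosen after seeing the data, they were 8, 16, 7, 13, 124 and 2, and Tspan18 was at -0.52. With batch as a random block (correlation 0.144) 26 rose, 3 fell, 1 fall held and 30 passed against the Hey1 array. Falls that held numbered 1 with quantile normalization run once more and 4 with an intensity trend, and 27 genes passed against the Hey1 array with arrays centred on their medians. Without each single array the ranges were 3 to 78, 2 to 22, 3 to 72, 1 to 12, 1 to 61 and 1 to 5. Where 1 Notch1 ICD (10) array remained, it was assumed to vary like the YFP arrays. NERT (10) had 557 rises and 182 falls with dim genes left out, and 13 to 30 rises and 0 to 17 falls without single arrays. Notch1 ICD (30) had 233 rises with dim genes left out, and 247 to 438 rises and 36 to 209 falls without single arrays. The causes of these shifts were not tested.

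The replicate numbers of the titles were not taken to pair the samples, since not every correlation of the deviations of same-numbered Notch1 ICD (10) and YFP arrays was over 0.1: they were 0.316, 0.138, 0.0211 and 0.245, all above 0. With the replicate block 67 genes rose, 12 fell, 58 rises and 8 falls held, 27 passed against the Hey1 array and 5 Notch targets rose.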

Other observations

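Transcript clusters with several gene symbols or none were fitted in the same way. Of 13767 such clusters, 0 rose and 1 fell in the Notch1 ICD (10) arrays against YFP (limma, Benjamini-Hochberg adjusted p under 0.05), and 1827 had an unadjusted p under 0.05. The cluster that fell did not hold against the batch 4 Hey1 array.

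Among the 19938 named genes, 1289 had an unadjusted limma p under 0.05 against YFP, and 44 passed after adjustment. A share of 0.05 of the genes is expected below that limit without any difference, so the 1289 are not a count of real differences.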
